A study of Mus musculus with 24 samples.

Results

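A set of 6 mature miRNAs that mark multiciliated cells of the airway was followed in irradiated and control mouse lung: mmu-miR-34b-5p, mmu-miR-34b-3p, mmu-miR-34c-5p, mmu-miR-34c-3p, mmu-miR-449a-5p and mmu-miR-449c-5p. They were taken by name from a list of ciliated-cell miRNAs, and are 6 of the 1950 miRNAs in the 3 deposited tables, which hold 1657 miRNAs at day 14, 1707 at day 90 and 1767 at day 180. The lungs came from C57BL/6 mice, an inbred strain. The age given for the mice is 6 to 8 weeks, taken here as that at the start. Mice of the later days were older when their lungs were taken. The whole thorax received 15 Gy of X-rays, or the mice were left unirradiated as controls of the same day, and small RNA was sequenced at day 14, day 90 and day 180. Each of the 6 groups has 4 libraries, 24 in all. No transgene or drug is named for any group. Nothing in the labels ties a library to an animal of its own, so the p-values below measure only the spread between these libraries, which may be technical. Whole lung was used, so every level is an average over all lung cells.

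Multiciliated cells carry the beating cilia that move mucus along the airways. The miR-34 and miR-449 families are abundant in these cells, and they are known to promote the exit from the cell cycle and the assembly of basal bodies that precede the growth of cilia. A miRNA hairpin is cut into a 5p and a 3p arm, and the seed, bases 2 to 8 of a mature arm, does most of the pairing with target mRNAs. The relative miR-34a shares the 5p seed but is a known p53 target expressed in many cell types.

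The sequences show which of these miRNAs can share targets. Mature entries were matched for 5 of the 6 members in RefSeq (GRCm38.p6). miR-34c-5p was not matched, so it is left out of the seed groups below, which say nothing about its seed. Each is written 5′ to 3′ with its seed in capitals. The first group below has the same seed, which 4 of 1679 mature mouse entries carry (0.238%), and miR-34a-5p is shown as the relative outside the ciliated-cell set.
mmu-miR-34b-5p: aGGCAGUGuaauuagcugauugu
mmu-miR-449a-5p: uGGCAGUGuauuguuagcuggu
mmu-miR-449c-5p: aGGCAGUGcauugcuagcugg
mmu-miR-34a-5p: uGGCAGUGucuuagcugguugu
The 3p arms of miR-34b and miR-34c have another seed, which only these 2 of 1679 entries carry (0.119%).
mmu-miR-34b-3p: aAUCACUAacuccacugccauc
mmu-miR-34c-3p: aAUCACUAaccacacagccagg
These 3p arms share their first 10 bases and differ at 5 of 22 positions. The miR-34b-5p and miR-449c-5p sequences share their first 8 bases. The sources used here do not give how reads that match several relatives were assigned, and the split of counts between close relatives is uncertain.

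The hairpin of miR-34b shows how both of its arms come from a single transcript. In the sequence below (84 bases, chr9:51103562-51103645, minus strand, GRCm38.p6) capitals mark the 5p arm and then the 3p arm, with 14 bases between them.
Mir34b: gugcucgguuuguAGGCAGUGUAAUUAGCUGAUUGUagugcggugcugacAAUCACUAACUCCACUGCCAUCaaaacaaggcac
The Mir34c hairpin lies beside it on the same strand (chromosome 9, 51103034 to 51103110), with 451 bases between them, and both fall in an intron of Btg4, a gene on the plus strand. On chromosome 13, plus strand, Mir449c (113035983 to 113036091), Mir449b (113037419 to 113037498) and Mir449a (113037534 to 113037624) lie in an intron of Cdc20b on the same strand, with 1327 and 35 bases between neighbours. Cdc20b is itself a gene of differentiating multiciliated cells.

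Total counts lay between 2832205 and 3695133 per library. A library from the irradiated group of day 180 (library 1) had the lowest total and the lowest median rank correlation with the other libraries of its day (Spearman's rho 0.914, against 0.940 to 0.962). Control library 2 of day 14 stood out in the summed level of 2 miRNAs of stratified epithelium, as given with the marker lists below. Levels are CPM, counts scaled to a common total after TMM scaling within a day, so that 1 read was worth 0.253 to 0.412 CPM. The 6 miRNAs together took 1.48% to 2.07% of the counts in day 14 controls and 1.22% to 1.71% in the irradiated libraries of that day. At day 90 the shares were 1.50% to 2.17% in controls and 2.11% to 2.48% after irradiation, and at day 180 they were 1.68% to 2.49% and 1.34% to 2.43%. The ranges overlapped at each day.

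None of the 6 miRNAs passed the test at any day. At day 90 all 6 lay above 0 on the log2 fold change scale (irradiated over control), and miR-34b-5p, at 1.85 times the control mean, was the only one whose libraries did not overlap between the groups. The 6 are not separate evidence, since the arms of miR-34b and miR-34c come from neighbouring hairpins. miR-449a-5p (0.06) and miR-34b-3p (0.10) lay near 0, and each changed sign when some single libraries were left out. At day 14, 4 of the 5 that could be tested lay below 0, and at day 180, 4 of 6 did, led by the 3p arms of miR-34c (0.664 times the control mean) and miR-34b (0.701 times). miR-449a-5p, the most abundant member, differed by less than its spread at each day. In whole lung, a change in the number of ciliated cells, a change per cell and expression in other cells cannot be told apart.

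The test was edgeR's quasi-likelihood F-test with p-values adjusted by Benjamini and Hochberg over all miRNAs of a day, and a call needs an adjusted p under 0.05. At day 14, 0 of 499 miRNAs (0%) were called. An unadjusted p under 0.05 was found for 27, of which 0 were members. At day 90, 2 of 558 (0.358%) were called, and of 71 with an unadjusted p under 0.05, 1 was a member. At day 180, 0 of 552 (0%) were called, and of 101 with an unadjusted p under 0.05, 0 were members. Over all tested miRNAs, 48.1% lay below 0 at day 14, 48% lay above 0 at day 90 and 41.1% lay below 0 at day 180. The groups did not overlap for 2.4% of miRNAs at day 14, 7.17% at day 90 and 12% at day 180, against 0 of 5, 1 of 6 and 0 of 6 members. The median log2 fold change of the members was -0.27, 0.36 and -0.16 at day 14, 90 and 180, beside 0.01, -0.02 and 0.13 over all miRNAs tested.

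**Figure D1:**
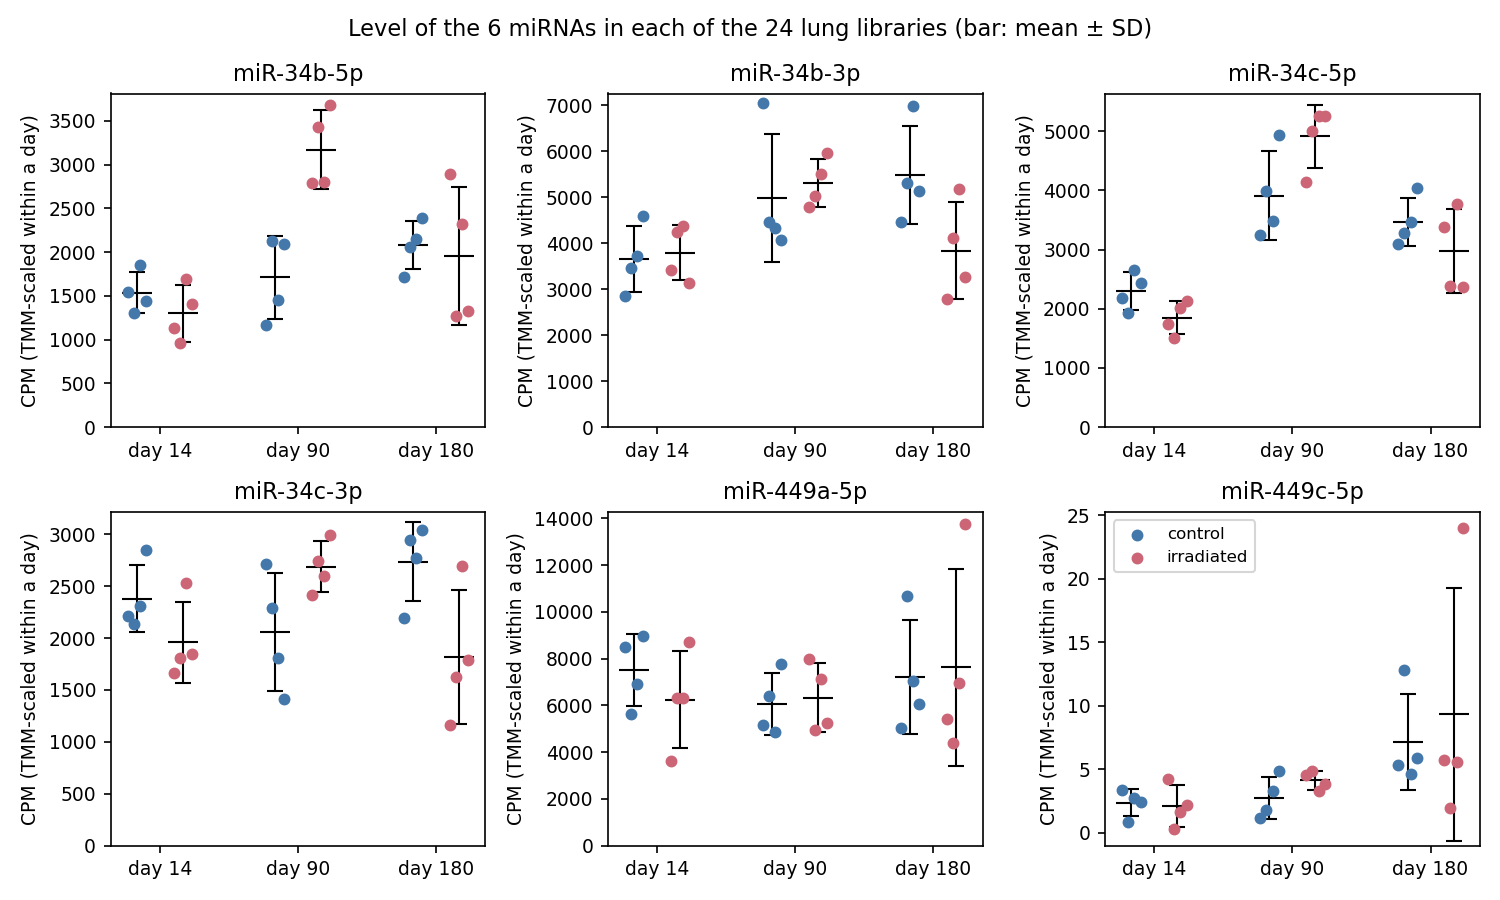
Level of each miRNA (y axis, CPM, TMM-scaled within a day, a scale of its own in each panel) in the 24 libraries, by day (x axis), with control libraries in blue, irradiated libraries in red, and the mean ± SD of 4 libraries in black. At day 90 the irradiated libraries of miR-34b-5p lie at 2786 to 3676 CPM, above all controls, while in the other panels the groups of each day overlap.

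miR-34b-5p, an arm with the shared 5p seed, stood at 1168, 2125, 1451 and 2096 CPM in control libraries 1 to 4 of day 90 and at 2786, 3424, 2799.8 and 3676 CPM in irradiated libraries 1 to 4. Every irradiated library was above every control. The means were 1710.0 ± 477 and 3171 ± 449 CPM (SD, n = 4 each), a log2 fold change of 0.89 ± 0.21 (SE) with an unadjusted 95% interval of 0.43 to 1.35. It ranked 7 of 558 by p, and it did not pass over all miRNAs (edgeR adjusted p = 0.119). The exact two-sided permutation p was 0.0286, the smallest that 4 against 4 libraries allow. It passed with no filter on low counts (edgeR adjusted p = 0.00369) and with DESeq2 (adjusted p = 0.0147). How many of all tested miRNAs passed under these settings was not counted, so it is not known whether miR-34b-5p stood out there. The adjusted p ran from 0.00369 to 0.394 when all alternatives are counted.

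At day 14 miR-34b-5p stood at 1539.9, 1306, 1858 and 1447 CPM in controls and at 1138, 956, 1696 and 1406 CPM after irradiation. The groups overlapped, with the lowest 2 libraries both irradiated (1538 ± 234 against 1299 ± 323 CPM, log2 fold change -0.24, edgeR adjusted p = 0.919). Within the 4 pairs of same-numbered libraries, which deviated together at this day, the irradiated library was the lower in 4 of 4. The share of all tested miRNAs with 4 of 4 pairs in a direction was not counted. With the replicate number as a block the log2 fold change was -0.25 (edgeR adjusted p = 0.797). At day 180 it stood at 1720.1, 2063, 2146 and 2389 CPM in controls and at 2891, 1273, 2316 and 1326 CPM after irradiation. Here the irradiated libraries fell on both sides of the controls, libraries 2 and 4 below all of them and library 1 above. The log2 fold change was -0.09 ± 0.29 (edgeR adjusted p = 0.891). It was -0.36 without library 1, the library of low total, and 0.08 without library 4.

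miR-34b-3p, the other arm of the same hairpin and the more abundant one, stood at 7042, 4468, 4329 and 4069 CPM in day 90 controls and at 4788, 5026, 5499 and 5963 CPM after irradiation. Control library 1 was the highest of the 8 and the other 3 controls were the lowest. The means, 4977 ± 1387 and 5319 ± 522 CPM, differed by 0.10 ± 0.18 on the log2 scale (edgeR adjusted p = 0.919). At day 14 the levels were 2851, 3462, 3717 and 4602 CPM in controls and 3425, 4240.25, 4372 and 3141 CPM after irradiation, with full overlap (log2 fold change 0.05, edgeR adjusted p = 0.978). The irradiated library was the higher in 3 of 4 same-numbered pairs. At day 180 they were 4471, 5309, 6980.2 and 5138 CPM in controls and 2783, 4109.7, 5187 and 3271 CPM after irradiation. There, 3 of 4 irradiated libraries lay below all controls (5475 ± 1067 against 3838 ± 1053 CPM). The log2 fold change was -0.51 ± 0.23, the unadjusted interval ran from -1.03 to 0.0073, and it did not pass (edgeR adjusted p = 0.277). Without irradiated library 1 it was -0.40.

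miR-34c-5p, of the neighbouring hairpin, stood at 3247, 3984, 3483 and 4932 CPM in day 90 controls and at 4137, 5006, 5251 and 5254 CPM after irradiation. Irradiated libraries 2, 3 and 4 lay above all controls, and library 1 lay below control library 4. The means were 3912 ± 747 and 4912 ± 529 CPM. The log2 fold change, 0.33 ± 0.15, did not pass (edgeR adjusted p = 0.384), and the exact two-sided permutation p was 0.0571. At day 14 it stood at 2185, 1927, 2661 and 2438 CPM in controls and at 1742, 1509.8, 2014 and 2129.6 CPM after irradiation. The lowest 2 libraries were irradiated and the highest 3 were controls (2303 ± 317 against 1849 ± 278 CPM, log2 fold change -0.32 ± 0.15, edgeR adjusted p = 0.883). Within the same-numbered pairs the irradiated library was the lower in 4 of 4 (log2 fold change -0.30 with the replicate block, edgeR adjusted p = 0.718). Deviations from the group mean went with those of miR-34b-5p at day 14 (Pearson's r 0.86), so the pair counts of these 2 arms are not separate evidence. At day 180 the levels were 3095, 3279, 3472 and 4039 CPM in controls and 3382, 2378, 3777 and 2365 CPM after irradiation, where libraries 2 and 4 were the lowest, as for miR-34b-5p (log2 fold change -0.22 ± 0.21, edgeR adjusted p = 0.593). It was -0.11 without irradiated library 4, -0.14 without library 2 and -0.36 without library 3.

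miR-34c-3p, which shares its seed with miR-34b-3p, stood at 2715, 2291, 1812 and 1414 CPM in day 90 controls and at 2409.7, 2745, 2594 and 2993 CPM after irradiation. Control library 1 lay among the irradiated libraries and the other 3 controls lay below them. The means were 2058 ± 566 and 2686 ± 247 CPM (log2 fold change 0.38 ± 0.20, edgeR adjusted p = 0.466). Without control library 4, the lowest, the log2 fold change was 0.21. At day 14 it stood at 2215, 2138, 2307 and 2849 CPM in controls and at 1660.4, 1806, 2532 and 1841 CPM after irradiation. There, 3 of 4 irradiated libraries lay below all controls, the log2 fold change was -0.28 ± 0.16 (edgeR adjusted p = 0.907), and the irradiated library was the lower in 3 of 4 same-numbered pairs. At day 180 it stood at 2189.8, 2940.2, 2770.2 and 3042 CPM in controls and at 1166, 1623, 2695 and 1786 CPM after irradiation. Again 3 of 4 irradiated libraries lay below all controls. The means were 2735 ± 381 and 1818 ± 641 CPM, with a log2 fold change of -0.59 ± 0.27, an unadjusted interval of -1.18 to 0.0048 and no call (edgeR adjusted p = 0.277). Without irradiated library 1, which had the lowest level, the log2 fold change was -0.44.

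miR-449a-5p, the main arm of its cluster, stood at 8508, 5649, 6920.1 and 8977 CPM in day 14 controls and at 3622, 6316, 6334 and 8716 CPM after irradiation. Irradiated library 1 was the lowest of the 8, and the others lay within the controls (log2 fold change -0.27 ± 0.26, edgeR adjusted p = 0.919). Without that library the log2 fold change was -0.059. Of the same-numbered pairs, 3 of 4 had the irradiated library lower. At day 90 the levels were 5169, 6422, 4883 and 7763 CPM in controls and 7999.6, 4945, 7123 and 5229 CPM after irradiation, with full overlap (log2 fold change 0.06, edgeR adjusted p = 0.944). At day 180 they were 5054, 10684, 7067 and 6049 CPM in controls and 5399, 4375, 6965 and 13759 CPM after irradiation. Both groups held a library well above the rest. The means were 7214 ± 2455 and 7624 ± 4226 CPM, and the log2 fold change was 0.08 ± 0.37 (edgeR adjusted p = 0.927), or -0.35 without irradiated library 4.

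miR-449c-5p, with the same seed, was near the limit of detection. Its counts were 11, 3, 8 and 8 in day 14 controls and 13, 1, 5 and 7 after irradiation, too few to be tested there. At day 90 they were 4, 6, 11 and 19 in controls and 16, 17, 11 and 15 after irradiation (log2 fold change 0.56 ± 0.41, edgeR adjusted p = 0.683). At day 180 they were 20, 48, 16 and 19 in controls and 14, 7, 22 and 87 after irradiation. The highest count of each group was in the library with the most miR-449a-5p, control library 2 and irradiated library 4. The log2 fold change was 0.38 ± 0.69 (edgeR adjusted p = 0.781), or -0.68 without irradiated library 4.

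**Figure D2:**
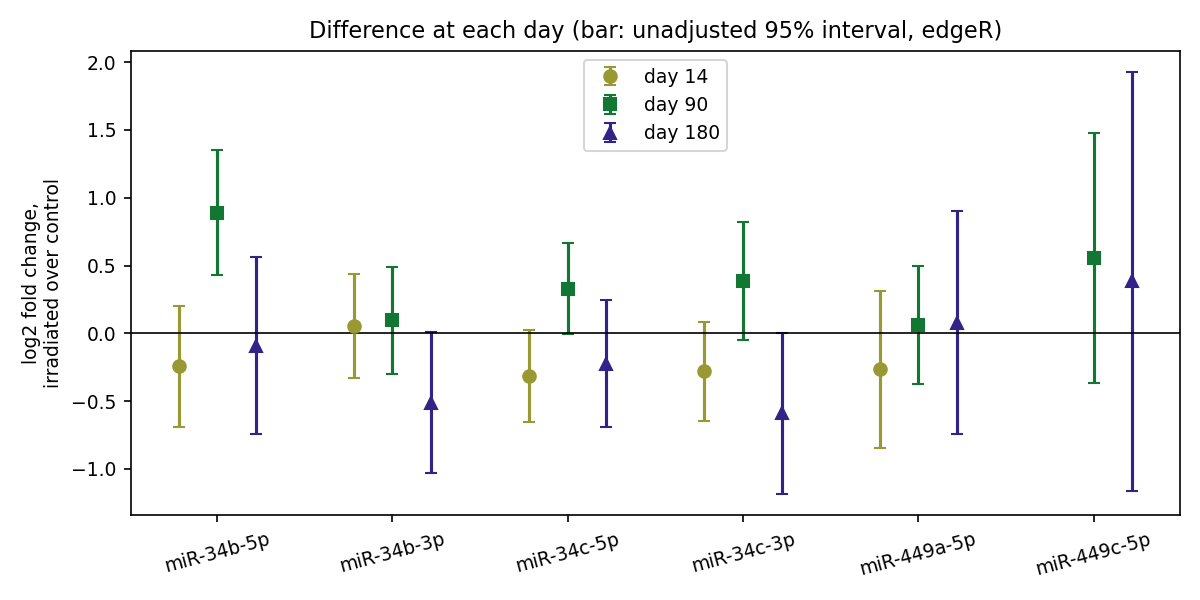
Log2 fold change of irradiated over control (y axis) for each miRNA (x axis) at day 14 (circles), day 90 (squares) and day 180 (triangles), with the unadjusted 95% interval from edgeR. The interval of miR-34b-5p at day 90, 0.43 to 1.35, lies above 0, and miR-449c-5p has no point at day 14 because its counts were too low.

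Whether the difference between irradiated and control lung itself changed between days was tested in a fit of all 24 libraries over 624 miRNAs. It called 0 of 624 (0%) between day 14 and day 90, 0 (0%) between day 90 and day 180 and 0 (0%) between day 14 and day 180. From day 14 to day 90 the log2 fold change of miR-34b-5p was higher by 1.14 ± 0.36 (SE), rank 7 of 624 by p (edgeR adjusted p = 0.394). That of miR-34c-3p was higher by 0.67 ± 0.31 and that of miR-34c-5p by 0.65 ± 0.26 (edgeR adjusted p = 0.996 and 0.787). From day 90 to day 180 the difference of the log2 fold changes was -0.9996 ± 0.31 for miR-34c-3p, rank 11 of 624 (edgeR adjusted p = 0.217), and -0.99 ± 0.36 for miR-34b-5p (edgeR adjusted p = 0.272). It was -0.63 for miR-34b-3p and -0.56 for miR-34c-5p (edgeR adjusted p = 0.327 for both). For miR-449a-5p it was -0.0055 ± 0.44 from day 90 to day 180 and 0.31 ± 0.44 from day 14 to day 90. Both steps share the day 90 libraries, so they are not separate evidence.

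The arms of a hairpin could be compared inside each library, where no scaling enters. Counts of miR-34b-5p were 0.166 to 0.515 times those of miR-34b-3p in day 90 controls and 0.509 to 0.681 times in the irradiated libraries of that day. All but 1 of the controls lay below the irradiated range, and control library 1 was lowest. The mean log2 ratios were -1.55 ± 0.75 and -0.75 ± 0.18. The ratio ran from 0.314 to 0.540 in controls and from 0.226 to 0.448 in irradiated libraries of day 14. At day 180 it ran from 0.307 to 0.465 and from 0.310 to 1.04, where library 1 alone reached 1.04 and the other 3 irradiated libraries stayed at or under 0.447. The 3p arm of miR-34b was thus the larger in 23 of 24 libraries.

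For miR-34c the 5p arm was 0.856 to 1.15 times the 3p arm in day 14 controls and 0.795 to 1.16 times after irradiation. At day 90 it was 1.20 to 3.49 and 1.72 to 2.02 times, and at day 180 it was 1.12 to 1.41 and 1.32 to 2.90 times, with irradiated library 1 again the highest. The difference of the mean log2 arm ratio, irradiated minus control, was -0.32, 0.80 and 0.36 for miR-34b at day 14, 90 and 180 and -0.03, -0.08 and 0.40 for miR-34c. By size, miR-34b ranked 36 of 122 hairpins, 12 of 140 and 81 of 136, and miR-34c ranked 108, 116 and 75. Neither hairpin had groups apart at any day, while 0.82%, 4.29% and 8.09% of hairpins did at day 14, 90 and 180. The ratio of miR-34b-5p to miR-34c-5p, arms of neighbouring hairpins, was 0.360 to 0.533 in day 90 controls and 0.533 to 0.700 after irradiation, with the ranges meeting at control library 2 and irradiated library 3. At day 14 it was 0.593 to 0.705 and 0.633 to 0.842, and at day 180 it was 0.556 to 0.629 and 0.535 to 0.855.

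**Figure D3:**
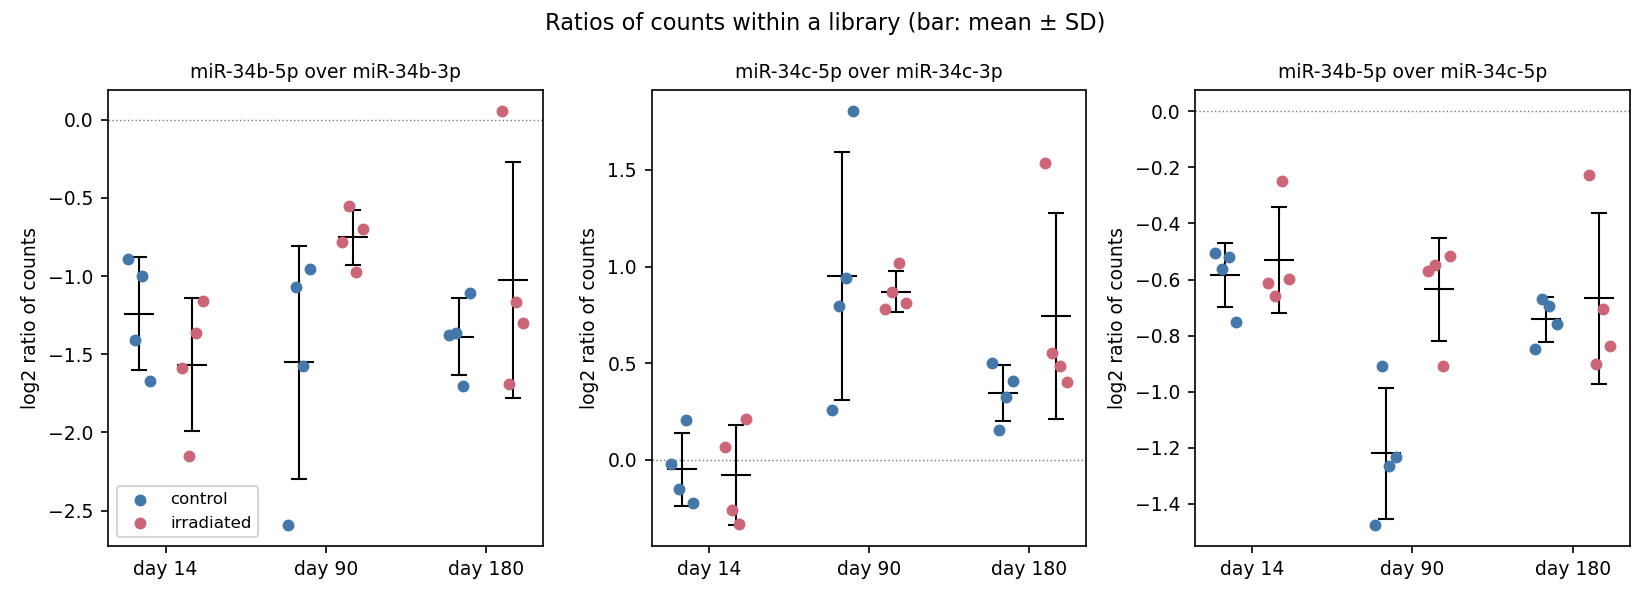
Log2 ratio of the counts of 2 arms within each library (y axis) by day (x axis), for the arms of miR-34b (left), the arms of miR-34c (middle) and the 5p arms of both hairpins (right), with controls in blue, irradiated libraries in red and the mean ± SD of 4 libraries in black. In the left panel the day 90 irradiated libraries lie at -0.97 to -0.55 and the controls of that day at -2.59 to -0.96, and library 1 of the irradiated day 180 group is the highest point at 0.06.

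Levels were set side by side over the 6 groups on 1 scaling of all 24 libraries. Each day is a deposited table of its own, and the mice were older at later days. Day, age and table thus cannot be told apart, and the order is a description. miR-34b-5p was highest in the irradiated day 90 group (2998 ± 431 CPM), followed by the day 180 controls (1987 ± 252), the irradiated day 180 group (1852 ± 777), the day 14 controls (1718 ± 286), the day 90 controls (1619 ± 483) and the irradiated day 14 group (1446 ± 355). Below the first place, neighbours in this order differed by less than their SD. miR-34c-5p was also highest in the irradiated day 90 group (4643 ± 515 CPM), followed by day 90 controls (3706 ± 833), day 180 controls (3317 ± 375), irradiated day 180 (2816 ± 701), day 14 controls (2575 ± 406) and irradiated day 14 (2060.1 ± 324). Its first and last steps were larger than the SD of both neighbours, and the others were not.

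The 3p arms had another order. miR-34b-3p ran from 5231 ± 1001 CPM in day 180 controls through 5026 ± 487 (irradiated day 90), 4694 ± 1312 (day 90 controls), 4231 ± 720.1 (irradiated day 14) and 4092 ± 885 (day 14 controls) to 3625 ± 996 in irradiated day 180 lungs. miR-34c-3p ran from 2657 ± 410.2 CPM in day 14 controls through 2613 ± 347 (day 180 controls), 2538 ± 237 (irradiated day 90), 2184 ± 432 (irradiated day 14) and 1937 ± 521 (day 90 controls) to 1713 ± 594 in irradiated day 180 lungs. Neighbours in these orders overlapped, and the irradiated day 180 group came last in both. miR-449a-5p ran from 8399 ± 1796 CPM in day 14 controls to 5746 ± 1447 in day 90 controls, with irradiated groups at 7131 ± 3739 (day 180), 7019 ± 2519 (day 14) and 5971 ± 1366 (day 90) and day 180 controls at 6889 ± 2316, all within their SDs of their neighbours. miR-449c-5p lay between 2.29 ± 1.72 CPM (irradiated day 14) and 8.66 ± 8.99 CPM (irradiated day 180), with day 14 controls at 2.65, day 90 controls at 2.64, irradiated day 90 at 3.91 and day 180 controls at 6.84 CPM. Among all miRNAs of the day 14 controls, miR-449a-5p ranked 41 by level, and miR-34b-3p, miR-34c-3p, miR-34c-5p and miR-34b-5p ranked 58, 64, 66 and 80, while miR-449c-5p ranked 538.

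From library to library within a group, the arms of miR-34b and miR-34c varied with the same arm of the neighbouring hairpin more than with their own partner. Same arms of other neighbouring hairpins were not compared, so how common this is was not counted. Values here are deviations of log2 CPM from the group mean over the 24 libraries. miR-34b-5p and miR-34c-5p had a Pearson's r of 0.86 (Spearman's rho 0.87), with 0.86, 0.80 and 0.92 within day 14, 90 and 180. miR-34b-3p and miR-34c-3p had an r of 0.77 (rho 0.72), with 0.73, 0.80 and 0.77 within the days. The arms of miR-34b had an r of -0.13 (rho -0.02) and those of miR-34c an r of 0.13 (rho 0.22). Within days, the arms of miR-34b stood at 0.07, -0.50 and -0.0025 and those of miR-34c at 0.55, -0.44 and 0.31, with no common sign. Without the 2 libraries that stand apart, the 4 values were 0.87, 0.72, 0.05 and 0.27. Without the 2 libraries farthest out on the first-named miRNA they were 0.86, 0.65, -0.07 and 0.32. The points share library, depth and scaling, the 3p arms share 10 leading bases, the sequences of the 5p arms of miR-34b and miR-34c were not compared here, and how such reads were assigned is not given, so these are descriptions of the counts.

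Weak correlation between arms was common in these libraries. Over the 158 hairpins with both arms measured, the median r between arms was 0.11, with quartiles of -0.15 and 0.43. Over the 7 hairpins with both arms at 1000 CPM or more it was -0.0016. Both sets include miR-34b and miR-34c. Counting the hairpin itself, 43 of the 158 and 3 of the 7 had an r at or below that of miR-34b. For miR-34c it was 83 of the 158 and 6 of the 7. miR-449a-5p and miR-449c-5p had an r of 0.47 (rho 0.38), with -0.13, 0.32 and 0.93 within the days. The high day 180 value includes the libraries named above, control library 2 and irradiated library 4. Between the loci, miR-449a-5p stood at r values of 0.07 with miR-34b-5p, -0.04 with miR-34b-3p, 0.14 with miR-34c-5p and 0.17 with miR-34c-3p.

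**Figure D4:**
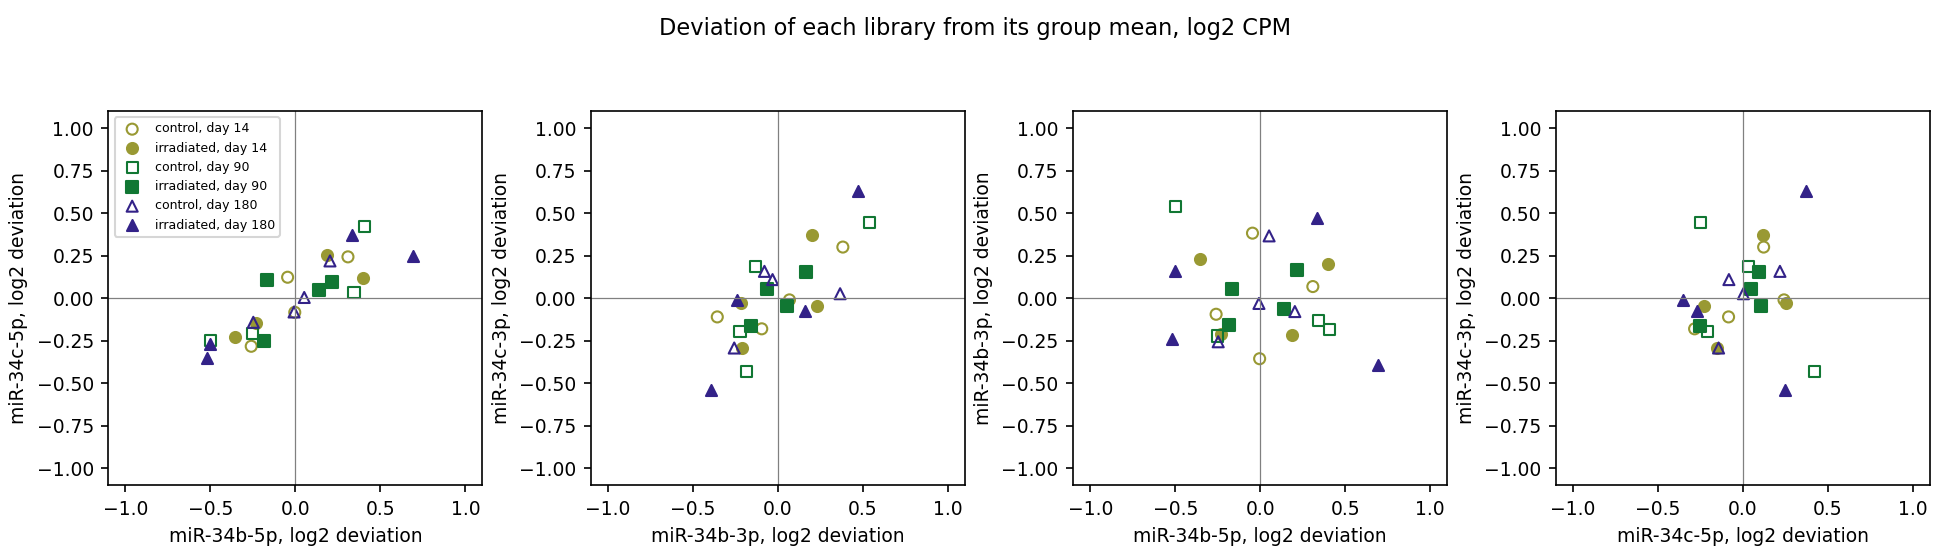
Deviation of each of the 24 libraries from its group mean on the log2 CPM scale, for miR-34b-5p against miR-34c-5p, miR-34b-3p against miR-34c-3p, miR-34b-5p against miR-34b-3p and miR-34c-5p against miR-34c-3p (left to right), with open marks for control and filled marks for irradiated libraries of day 14 (circles), day 90 (squares) and day 180 (triangles). Points lie along the diagonal in the first and second panels (r of 0.86 and 0.77) and not in the others (-0.13 and 0.13).

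Likeness was then ranked over all 623 other miRNAs. miR-34b-5p was the nearest of them to miR-34c-5p, and the other members ranked 171 to 246. The 5 nearest miRNAs outside the set were an unannotated, predicted miRNA (r = 0.60), miR-425-3p (0.59), miR-29a-5p (0.53), miR-450a-5p (0.53) and miR-345-5p (0.52), beside a 95th percentile of 0.38 over all 623. For miR-449a-5p the nearest were miR-511-3p (0.74), miR-155-5p (0.73), miR-18b-5p (0.61), miR-146b-5p (0.61) and miR-3071-3p (0.60), beside a 95th percentile of 0.42. Spearman's rho of these 5 was 0.62, 0.58, 0.51, 0.58 and 0.53. miR-155 and miR-146b are known as miRNAs of activated leukocytes. The ranks of the listed leukocyte, myeloid and lymphoid miRNAs are not given here, and a part of leukocytes in this likeness was not tested. miR-449c-5p ranked 20 for likeness to miR-449a-5p.

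Of the seed relatives outside the set, miR-34a-5p was more abundant than any member. It stood at 12193 ± 471 CPM in day 14 controls and 21441 ± 4656 CPM after irradiation, with every irradiated library above every control (log2 fold change 0.81 ± 0.16, edgeR adjusted p = 0.328), while 4 of 5 members lay below 0 there. Its log2 fold change was 0.26 at day 90 and 0.42 at day 180 (edgeR adjusted p = 0.506 and 0.259). Over the 24 libraries its r with miR-449a-5p was -0.57, rank 621 of 623, and with miR-34c-5p it was 0.09. At day 14, irradiated library 4 had the lowest miR-34a-5p of its group and the highest miR-449a-5p (14565 and 8716 CPM). So did irradiated library 4 of day 180 (12802 and 13759 CPM). The r without these libraries was not computed. miR-34a-3p and miR-449a-3p had counts of 1 to 18 and 1 to 17 and could not be tested. miR-449b, found in the day 180 table, and miR-449c-3p, found in the day 90 and day 180 tables, had counts of 0 to 2, under the limit of 3 that a count of 0 allows.

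Markers of lung cell types were summed beside these results, and their part in the results was not tested. The tables hold miRNAs, so genes of cilia could not be used to check the ciliated-cell label. The 11 miRNAs of airway and lung epithelium, among them the miR-200 family, were detected in all 24 libraries. At day 90, 9 of 11 lay above 0 (median log2 fold change 0.12, 0 called). Summed levels were 43090.3 to 53818 CPM in controls and 50079.8 to 59828 CPM after irradiation. These ranges overlapped, as did those of every member except miR-34b-5p. At day 14, 4 of 11 lay above 0 (median -0.04, 0 called), with sums of 48291 to 51476 and 45488 to 52705 CPM. At day 180, 5 of 11 lay above 0 (median -0.04, 0 called), with sums of 49661 to 54507 CPM in controls and 40727 to 80792 CPM after irradiation. The value of 80792 CPM was in library 1, which had the lowest miR-34b-3p and miR-34c-3p, and irradiated library 4, which had the highest miR-449a-5p, held 40727 CPM.

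Both calls of day 90 were markers of other cells. All 7 miRNAs of striated muscle lay above 0 and 1 was called, miR-133b-3p (log2 fold change 2.48, edgeR adjusted p = 0.0221), with summed levels of 371 to 1301 CPM in controls and 978 to 3918 CPM after irradiation. The 2 hepatocyte miRNAs lay above 0 and 1 was called, miR-122-3p (log2 fold change 1.64, edgeR adjusted p = 0.0221), with sums of 166 to 472 CPM and 659.99 to 1068 CPM. All 4 lymphoid miRNAs lay below 0, with 0 called and sums of 16209.6 to 27413 CPM in controls and 11415 to 17269 CPM after irradiation. At day 14 the summed miRNAs of stratified epithelium lay at 551 to 4014 CPM in controls, the highest in control library 2, and at 519.7 to 582 CPM after irradiation. Without that library, the log2 fold changes at day 14 were -0.30 for miR-34b-5p, 0.04 for miR-34b-3p, -0.38 for miR-34c-5p, -0.31 for miR-34c-3p and -0.37 for miR-449a-5p. At day 180 the stratified epithelium sum lay at 817 to 889.9 CPM in controls and at 581 to 789.9 CPM after irradiation, with every irradiated library below every control, both miRNAs below 0 (median log2 fold change -0.59) and 0 called. Such a lack of overlap was common at day 180, where it held for 66 of 552 single miRNAs (12%) in either direction. The 3p arms of miR-34b and miR-34c, also below 0 at that day, overlapped between the groups.

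None of the remaining lists held a call. Endothelial, smooth muscle, fibroblast, myeloid and erythroid miRNAs had 0 called at each day. At day 180 the fibroblast and mesenchymal sum ran from 8163 to 8526 CPM in controls and from 3419 to 14704 CPM after irradiation, and the erythroid sum from 26705 to 33008 CPM and from 19487 to 39203 CPM. Of the 7 listed p53-regulated miRNAs outside the set, 6 were tested at each day and 0 were called, with medians of 0.0029, -0.07 and -0.37 at day 14, 90 and 180. Their summed level at day 14, which includes miR-34a-5p, lay at 17844 to 23109 CPM in controls and at 24319 to 29775 CPM after irradiation, without overlap. miR-34a-5p alone held 12193 ± 471 and 21441 ± 4656 CPM of this and did not overlap either, so the sum is not separate evidence. A sum without miR-34a-5p was not computed. The sum with it overlapped at day 90 (20001 to 25295 and 21367.5 to 29357 CPM) and at day 180 (19120.1 to 25524 and 17413 to 25774 CPM).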

How the data were processed

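Small RNA from lung was extracted with Trizol, cut from a gel by size, ligated to adaptors and amplified by PCR, per the labels' protocols. The authors deposited a table per day with a whole-number read count and an RPM value for each miRNA in each library. The deposited RPM values rest on totals of 11984010 to 16081430 per library, more than the sum of the counts in a table, and served only as an alternative library size. The aligner Bowtie2 (version and role not stated) and the build GRCm38.p6 were used per the submitters' processing notes. The sources used here do not give whether molecular identifiers were used. The members and lists were chosen with earlier results of these data known.

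Counts were tested with edgeR 4.0.16 (R 4.3.3): filterByExpr, TMM, quasi-likelihood F-test with the legacy fit, Benjamini-Hochberg adjustment over all miRNAs of a day, threshold 0.05. Changes of effect between days used the miRNAs shared by the 3 tables (624 of 1477 tested). The SE is the log2 fold change over the square root of F. Correlations used log2 CPM with a prior count of 2. Ratios given for single libraries and groups used the counts alone. The arm ratio differences and ranks over all hairpins used a pseudocount of 0.5. Exact permutation tests are two-sided on log2(CPM + 1). All 6 members and the relatives in a table are named, with the 5 miRNAs most like miR-34c-5p and miR-449a-5p, and up to 2 of a marker list. The code was tested on simulated data. Positions come from GENCODE for GRCm38. Alternatives used limma 3.58.1 and DESeq2 1.42.0. Arm comparisons over all hairpins were added after seeing the data. Same-numbered libraries of day 14 deviated together (correlations 0.41, 0.17, 0.47 and 0.41), so the direction within these pairs is given there. The values reported come from the fit with no block, and the fit with the replicate number as a block is an alternative.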

Additional observations from a re-analysis of the deposited data

Results flagged for a closer look

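Single libraries far from the other 3 of their group were sought in 66 groups of 4 (36 of levels and 30 of ratios within a library), and 7 were found. Chance gives about 1 in 20. In levels, miR-34b-3p stood at 7042 CPM in control library 1 of day 90 (others 4069 to 4468), and miR-449c-5p at 12.8 CPM in control library 2 of day 180 (others 4.66 to 5.88). In the log2 ratio of miR-34b-3p to miR-34c-3p, control library 1 of day 14 stood at 0.36 (others 0.69 to 0.70). In the log2 ratio of miR-34b-5p to miR-34c-5p, irradiated library 3 of day 14 stood at -0.25 (others -0.66 to -0.60) and irradiated library 3 of day 90 at -0.91 (others -0.57 to -0.52). The arms of miR-34c had a log2 ratio (5p over 3p) of 1.54 in irradiated library 1 of day 180 (others 0.41 to 0.55), the library of lowest total count. The log2 ratio of miR-449a-5p to miR-34c-5p was 2.54 in irradiated library 4 of day 180 (others 0.67 to 0.88).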

How the results depend on the processing

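Over the alternatives tried, 636 fold changes and changes of effect of single members kept their direction and side of the threshold, 41 changed sign, 2 newly passed and 0 were lost. All of those that changed sign had adjusted p-values over the threshold. The number of members called at day 90 was 1 with no filter and 1 with DESeq2, against 0, in both cases miR-34b-5p, and the cause was not tested. The share of all miRNAs called under these settings was not counted. With the replicate number as a block, 0 members were called at each day. The miR-34b-5p log2 fold change was then 0.90 at day 90 (edgeR adjusted p = 0.195). At day 90 and day 180 same-numbered libraries did not deviate together (correlations -0.22 to 0.36 and -0.36 to -0.09), and only some or none correlated best with their own number.

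Signs that changed under another tool, scaling or filter belonged to log2 fold changes of day 180, -0.021 for miR-449a-5p with no filter and -0.057 for miR-449c-5p with limma-voom, and to the miR-449a-5p change of effect from day 90 to day 180, 0.045 with RLE scaling, 0.085 with a mean of at least 10 CPM and 0.045 with DESeq2. The cause was not tested. With single libraries left out, log2 fold changes ran from -0.033 to 0.21 (miR-34b-3p, day 14), from -0.020 to 0.29 (miR-34b-3p, day 90), from -0.092 to 0.18 (miR-449a-5p, day 90), from -0.36 to 0.078 (miR-34b-5p, day 180), from -0.35 to 0.33 (miR-449a-5p, day 180) and from -0.68 to 0.82 (miR-449c-5p, day 180). Without changing sign they ran from -0.38 to -0.11 (miR-34b-5p, day 14), from -0.45 to -0.059 (miR-449a-5p, day 14) and from 0.29 to 0.96 (miR-449c-5p, day 90). The miR-34c-3p value of day 14 was -0.15 without control library 4. Changes of effect then ran from -0.16 to 0.27 (miR-34b-3p, day 14 to 90), from -0.33 to 0.28 (miR-449a-5p, day 90 to 180) and from -1.16 to 0.24 (miR-449c-5p, day 90 to 180). From day 14 to 180 they ran from -0.13 to 0.38 (miR-34b-5p), from -0.021 to 0.26 (miR-34c-5p), from -0.083 to 0.60 (miR-449a-5p) and from -0.50 to 1.18 (miR-449c-5p). Of the 5 miRNAs most like miR-449a-5p, 3 were also among the 5 by Spearman's rho. Depth limits only miR-449c-5p among the members.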

Other observations

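The ratio of the 3p arms of the neighbouring hairpins, which share a seed, did not overlap between the groups of day 14. Counts of miR-34b-3p were 1.29 to 1.62 times those of miR-34c-3p in controls and 1.71 to 2.35 times after irradiation, so that all 4 irradiated libraries lay above all 4 controls (mean log2 ratio 0.61 ± 0.16 and 0.96 ± 0.22, SD). The gap was small, with the highest control at 1.62 and the lowest irradiated library at 1.71. Control library 1, flagged above, stood at 1.29 and the other controls at 1.61 to 1.62. The lack of overlap was noticed among 5 ratios at 3 days after the values were seen and was not tested. How often such ratios separate among other neighbouring miRNAs was not counted. At day 90 the ratio was 1.95 to 2.88 in controls and 1.83 to 2.12 after irradiation, and at day 180 it was 1.69 to 2.52 and 1.83 to 2.53, with overlap at both days. miR-449a-5p was 2.60 to 3.89 times as frequent as miR-34c-5p in day 14 controls, 1.40 to 1.61 times in day 90 controls and 1.50 to 3.26 times in day 180 controls. After irradiation it was 2.08 to 4.18, 0.988 to 1.93 and 1.60 to 5.82 times as frequent at day 14, 90 and 180, overlapping the controls of each day.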
